A study of Mus musculus with 37 samples.

Results

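Oxidative phosphorylation runs on 5 protein complexes of the inner mitochondrial membrane, and most of their subunits are encoded by nuclear genes. The genes described here are those present in both deposited raw count tables whose symbols belong to the subunit families Nduf (complex I), Sdh (complex II), Uqcr (complex III), Cox4 to Cox8 (complex IV) and Atp5 (complex V), leaving out Ndufa4l2 and Cox4i2. The rule found 78 of the 11447 genes shared by the tables: 35 of complex I, 4 of complex II, 7 of complex III, 15 of complex IV and 17 of complex V. Ndufa4 was counted with complex IV, in which its product resides, and Cox7a2l, whose product joins complexes III and IV into supercomplexes, was counted with complex IV too. Ndufs5-ps, which carries the name of a pseudogene, is among the complex I members. Mitochondrially encoded subunits were not analysed here.

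Expression was measured by bulk sequencing of RNA 3′ ends in 37 libraries of BALB/c mouse cells, from animals of 8 weeks. Macrophages grown from bone marrow with L929-conditioned medium were collected at day 0 or after 7 days with fibroblasts from mesometrial fat, lung or the mammary fat pad (4 libraries each). Fibroblasts were taken after 7 days with macrophages or alone, from fat (3 and 2 libraries), lung (3 and 3) and mammary fat pad (5 and 5), and for fat and mammary a replicate pooled cells of 2 females. Live macrophages were sorted as F4/80 and CD11b positive and fibroblasts as negative for both, and no engineered allele is named for any group. Fibroblast growth media and depletion of EpCAM- and CD45-positive cells were shared by all fibroblast groups. No group of macrophages was kept alone for 7 days, so that co-culture and time away from day 0 cannot be told apart. Day-0 macrophages came from L929-conditioned medium, which is not named for the co-cultures, so that medium is a further difference between them. For lung fibroblasts and macrophages the labels do not say which libraries came from separate animals, and p-values then measure only the spread between these libraries.

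Electrons from NADH enter the chain at complex I and electrons from succinate at complex II, which is also an enzyme of the citric acid cycle. They pass through coenzyme Q to complex III and by cytochrome c to complex IV, which reduces oxygen. Complexes I, III and IV pump protons, and complex V, the ATP synthase, uses the returning protons to make ATP. In macrophages the balance between this pathway and glycolysis is known to shift with the state of activation, and alternatively activated cells are known for reliance on respiration.

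A macrophage library held between 3040103 and 6223115 gene counts, and a fibroblast library between 3304605 and 7487355. The cell labels were checked on marker genes: Adgre1, which encodes F4/80, stood at 651 to 1259 CPM in macrophage libraries and Dcn, a fibroblast proteoglycan gene, at 518 to 3808 CPM in fibroblast libraries. F4/80 was also used for the sort, so that Adgre1 is not independent of it. CPM, the depth-normalised read count, was computed on library totals scaled by TMM. The summed level of 14 measured fibroblast markers in macrophages was 7.87 to 19.0 CPM at day 0, 222 to 397 CPM with fat, 127 to 255 CPM with lung and 406 to 551 CPM with mammary fibroblasts. The summed level of 16 macrophage markers in fibroblasts was 592 to 3444 CPM in fat co-cultures against 337 to 425 CPM alone, 1923 to 2986 against 390.3 to 792.5 CPM in lung, and 738 to 2186 against 34.3 to 645 CPM in mammary libraries. On the log2(CPM + 0.5) scale, epithelial markers averaged 5.08 to 5.93 in the fat and lung fibroblast groups and 1.55 and 1.90 in the mammary groups. Endothelial markers averaged 4.45 in fat fibroblasts alone, 2.73 in fat co-cultures and 1.08 to 1.93 in the other groups. The part of such cells in differences between fibroblast groups was not tested. Lung mono-culture library 3 is titled lung but its tissue field names the mammary fat pad. Lung patterning genes averaged 3.35 in it on the log2(CPM + 0.5) scale and 3.49 to 4.12 in the other lung libraries. Fat and mammary libraries stood at 0.67 to 1.39. Calls of named members that were lost without lung mono-culture library 3 are given below.

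Mean levels of the members over all libraries ran from 0.818 to 1270.5 CPM with a median of 203 CPM in macrophages and from 1.02 to 1337 CPM with a median of 247 CPM in fibroblasts. These are levels of 3′ ends and were not scaled by transcript length. Atp5b, the catalytic beta subunit of the ATP synthase, ranked highest in macrophages and Cox6a1, a broadly expressed subunit of complex IV, highest in fibroblasts. The most abundant member of complex I was Ndufa13 and of complex III Uqcr10 in macrophages and Uqcrh in fibroblasts. For complex II it was Sdhb in macrophages and Sdhc in fibroblasts. Of the 78 members, 76 passed the filter on low counts in macrophages and 77 in fibroblasts. Ndufa11 failed in both tables, and Cox6a2 failed in macrophages, where it stood at 0.931 to 1.71 CPM (group means).

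**Figure D1:**
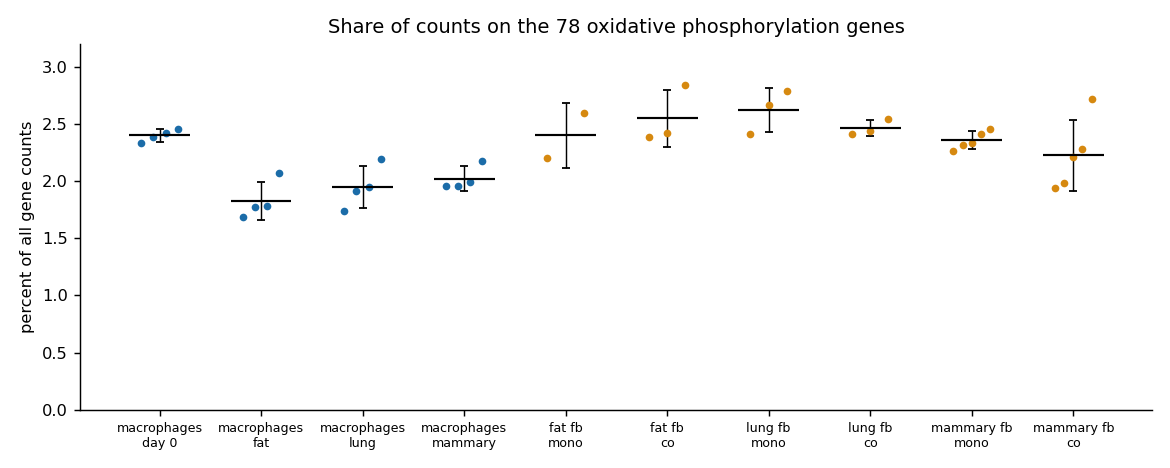
Each point is 1 library, the vertical axis gives the percent of all gene counts that fell on the 78 members, bars are group means and whiskers the SD (fb, fibroblasts; mono, alone; co, with macrophages). The 4 day-0 macrophage libraries, at 2.33% to 2.46%, lie above all 12 co-cultured macrophage libraries, at 1.69% to 2.19%, whereas the fibroblast groups overlap.

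Members took a smaller share of the RNA in co-cultured macrophages than at day 0. The 4 day-0 libraries gave 2.39%, 2.33%, 2.46% and 2.42% of all gene counts. After co-culture the libraries gave 1.78%, 2.07%, 1.77% and 1.69% with fat, 2.19%, 1.74%, 1.95% and 1.91% with lung, and 1.96%, 1.99%, 2.18% and 1.96% with mammary fibroblasts. No co-cultured library reached the lowest day-0 value. Group means were 2.4% ± 0.0548 at day 0, 1.83% ± 0.167 with fat, 1.95% ± 0.186 with lung and 2.02% ± 0.106 with mammary fibroblasts (SD, n = 4 each). In such bulk samples, fewer cells of a type and less RNA per cell cannot be told apart. Cytosolic ribosomal protein genes moved alongside, at 5.45% to 5.91% of counts at day 0 and 4.28% to 5.01%, 4.40% to 5.76% and 4.83% to 5.50% with fat, lung and mammary fibroblasts, and their part in the result was not tested.

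Against day 0, 33 of the 76 tested members fell with fat fibroblasts, 20 with lung and 12 with mammary fibroblasts, and 1, 1 and 2 rose. A gene was called when its p from edgeR's quasi-likelihood test, adjusted over all 10295 genes tested, was under 0.05. Over all genes, 14.4%, 13.2% and 11.8% were called lower, against 43.4%, 26.3% and 15.8% of the members, so that the mammary share of members lies nearest to the background. Among the 1909 genes of at least 100 CPM the shares called lower were 18.9%, 13.7% and 14.9%. Among the 59 members at that level they were 47.5%, 28.8% and 20.3%. The background of genes called higher was 15.8%, 14.6% and 14.4%. The median log2 change over the members was -0.33, -0.23 and -0.17, against -0.01 over all genes in each comparison. Negative changes, whether called or not, were found for 67, 60 and 63 of the 76 members. All 4 co-cultured libraries lay below all 4 day-0 libraries for 28, 15 and 14 members, where 12.9%, 12.0% and 10.6% of all genes did so. The 3 comparisons share the same day-0 libraries.

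**Figure D2:**
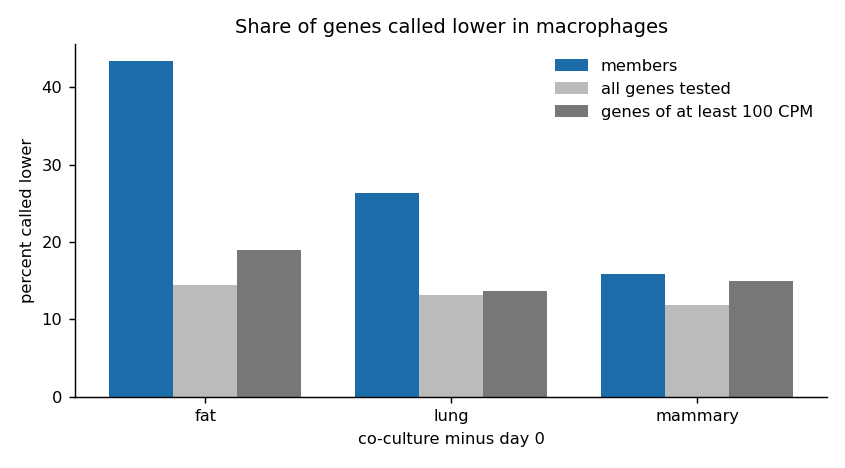
Bars give the percent of features called lower against day 0 (adjusted p < 0.05, edgeR) for the members, for all genes tested and for genes of at least 100 CPM. The members stand at 43.4%, 26.3% and 15.8%, above all genes at 14.4%, 13.2% and 11.8%. These are all 76 tested members, and the 59 of at least 100 CPM gave 47.5%, 28.8% and 20.3%.

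These counts depended on single libraries. The fat count of 34 calls in either direction was 22 without fat library 1, 3 or 4. The lung count of 21 was 9 without lung library 3, 10 without lung library 2, 12 without lung library 4 or day-0 library 4, and 13 without day-0 library 1. The mammary count of 14 ranged from 10 to 15. Without any 1 library the median change over the members stayed between -0.41 and -0.30 with fat, -0.31 and -0.15 with lung, and -0.23 and -0.14 with mammary fibroblasts.

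In complex II, the smallest of the complexes, 3 of 4 subunits fell with fat and with mammary fibroblasts and 1 with lung fibroblasts. Over all genes 14.4% fell with fat, 11.8% with mammary and 13.2% with lung fibroblasts. Sdhb (chromosome 4, 140961203 to 140979193 of GRCm38), the iron-sulphur subunit, stood at 677, 653, 599 and 674 CPM at day 0. With fat fibroblasts it stood at 411, 486, 423 and 439.9 CPM, with lung at 433, 405, 432 and 411.5 CPM and with mammary at 404, 426, 524 and 463 CPM. Every co-cultured library lay below every day-0 library. The log2 changes were -0.57 ± 0.10, -0.63 ± 0.10 and -0.52 ± 0.10 (SE), with adjusted p = 0.000198, 6.7e-05 and 0.000499 by edgeR. Sdhc, a membrane anchor, fell with fat (-0.45) and mammary fibroblasts (-0.39), and Sdhd, the other anchor, fell with fat (-0.42). Sdha, the flavoprotein that oxidises succinate, fell with mammary fibroblasts (-0.34 ± 0.10, adjusted p = 0.0214; 0.0619, 0.0634 and 0.074 without day-0 library 1, day-0 library 3 or mammary library 4), whereas its changes with fat and lung were -0.14 each (adjusted p = 0.337 and 0.342).

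In complex V, 10 of 17 members fell with fat, 5 with lung and 4 with mammary fibroblasts, and none rose. These are 58.8%, 29.4% and 23.5%, against 14.4%, 13.2% and 11.8% of all genes. Atp5b (chromosome 10, 128083273 to 128090391) stood at 1625, 1409.9, 1633 and 1539.5 CPM at day 0. It stood at 1168, 1358, 1040.1 and 1183 CPM with fat, 1262, 1284, 1049.7 and 1278 CPM with lung, and 1167, 1240.3, 1058 and 1033 CPM with mammary fibroblasts. The groups did not overlap, and the log2 changes were -0.39 ± 0.11, -0.35 ± 0.11 and -0.47 ± 0.11 (SE; adjusted p = 0.00963, 0.019 and 0.00276). Atp5a1, its alpha partner in the catalytic head, changed by -0.39, -0.33 and -0.46, and all 3 changes were called. Of the 3 genes for the c subunit, whose ring turns in the membrane, Atp5g3 was the most abundant and fell in all 3 comparisons (-0.62, -0.50 and -0.44). Its mammary call was lost with the replicate block (adjusted p = 0.0593) and under 6 single omissions (up to 0.132), and its lung call under 5 (0.0548 to 0.0709). Atp5g1 fell with fat (-0.89) and lung (-0.64, lost under 4 single omissions, adjusted p of up to 0.108), and with mammary fibroblasts its 4 libraries stood at 34.5, 29.8, 35.1 and 20.2 CPM against 35.4 to 49.5 CPM at day 0, without a call. Atp5o, in the stalk that holds the catalytic head still, fell by 0.48, 0.41 and 0.37 on the log2 scale. Another annotated gene, Donson, overlaps the 3′ end of a longer Atp5o entry, so that its counts are less certain.

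**Figure D3:**
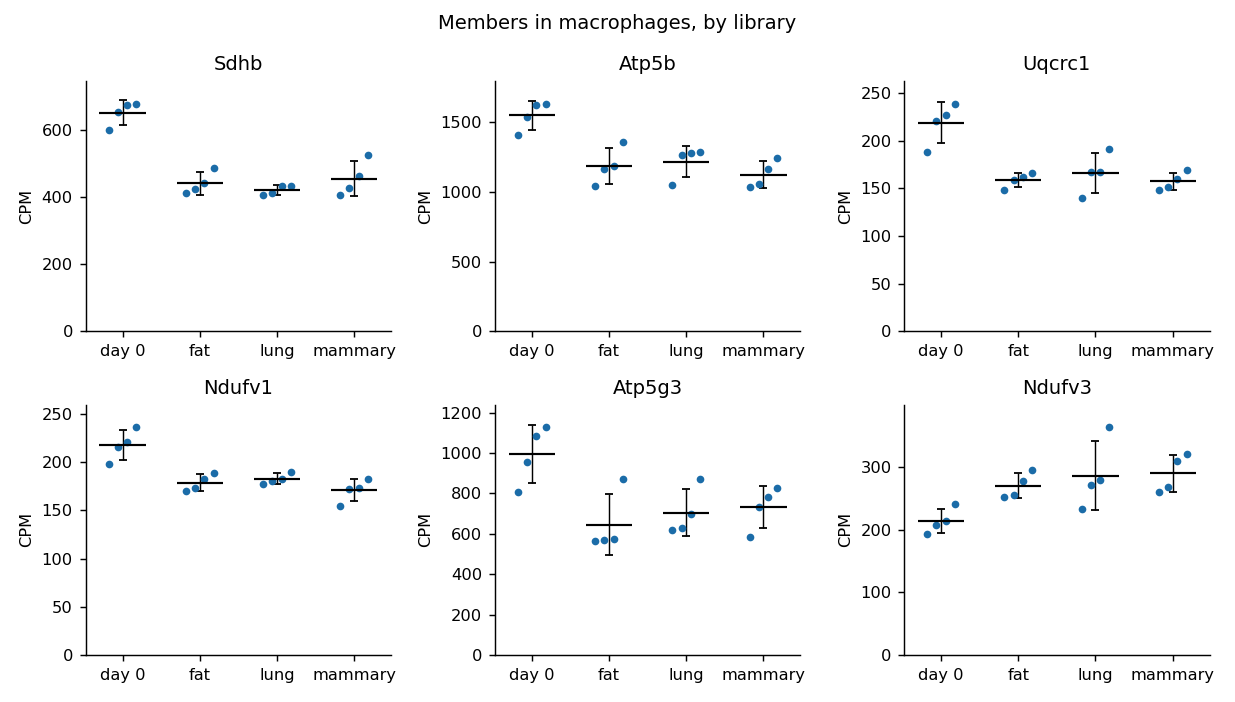
Points are macrophage libraries at day 0 and after co-culture with fat, lung or mammary fibroblasts, the vertical axes give CPM, bars are means and whiskers the SD (n = 4 each). Sdhb, Atp5b, Uqcrc1, Ndufv1 and Atp5g3 have lower means in every co-culture, as Sdhb shows with 440, 420 and 454 CPM against 651, whereas Ndufv3 has higher means, at 270, 287 and 290 CPM against 214.

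In complex I, 13 of 34 tested subunits fell with fat, 11 with lung and 4 with mammary fibroblasts (38.2%, 32.4% and 11.8%), and 1 rose in all 3 comparisons. Over all genes 14.4%, 13.2% and 11.8% fell, so that the mammary share of complex I equals the background. Among the 7 core subunits, which carry the flavin and the iron-sulphur clusters, 4, 4 and 3 fell, and Ndufv1 and Ndufs8 fell in all 3 comparisons. Ndufs1, another core subunit, stood at 85.5 CPM at day 0 and at 78.8, 91.2 and 91.7 CPM with fat, lung and mammary fibroblasts (group means), without a call. Ndufv1, which binds the flavin, stood at 216, 221, 236 and 198 CPM at day 0 and at 155 to 190 CPM in the 12 co-cultured libraries, with no overlap. Its log2 changes were -0.28 ± 0.09, -0.25 ± 0.09 and -0.35 ± 0.09 (SE; adjusted p = 0.023, 0.0444 and 0.00699). The lung call of Ndufv1 was lost under 7 of the alternatives, with adjusted p of up to 0.113, and the fat call without day-0 library 3 or fat library 1 or 3 (adjusted p = 0.065, 0.0623 and 0.0733).

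Among the accessory subunits of complex I, Ndufa5 fell most with fat fibroblasts. It stood at 101, 116, 112.5 and 103 CPM at day 0, at 41.9, 76.6, 49.6 and 42.5 CPM with fat, and at 104, 36.2, 67.9 and 53.9 CPM with lung fibroblasts. Lung library 1 overlapped the day-0 libraries, whereas the fat libraries all lay below them. The log2 changes were -1.04 ± 0.26 with fat and -0.71 ± 0.25 with lung (SE; adjusted p = 0.00535 and 0.044), and the lung call was lost without any 1 of 7 libraries and with replicate numbers as a block. With mammary fibroblasts Ndufa5 stood at 81.2, 76.3, 113 and 95.2 CPM and was not called. Ndufs6 fell with fat (-0.59) and lung (-0.37), and Ndufb6 with fat (-0.71) and lung (-0.53). The annotation places Smim27 over the 3′ end of Ndufb6.

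Ndufv3 (chromosome 17, 31520115 to 31531331), an accessory subunit near the flavin-binding site, rose. Its day-0 libraries stood at 207, 214.5, 193 and 241 CPM. With fat fibroblasts they stood at 252, 295, 277 and 256 CPM, with lung at 363, 233, 271 and 279 CPM, and with mammary at 261, 321, 268 and 310.1 CPM. Only lung library 2 overlapped day 0. The log2 changes were 0.34 ± 0.13, 0.42 ± 0.13 and 0.44 ± 0.13 (SE; adjusted p = 0.0489, 0.0157 and 0.0131). The fat call was lost under 10 alternatives and the lung call without lung library 1 (adjusted p = 0.0712), and no alternative ended the mammary call, at an adjusted p of 0.00391 to 0.0477.

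Complex III had 3, 2 and 1 of 7 members called lower with fat, lung and mammary fibroblasts (42.9%, 28.6% and 14.3%), and complex IV a smaller share (28.6%, 7.14% and none). Over all genes the shares were 14.4%, 13.2% and 11.8%, so that the mammary share of complex III lies near the background. In complex III, Uqcrc1, a core protein of the part of the complex that faces the matrix, fell in all 3 comparisons (-0.46, -0.39 and -0.48), from 219 ± 21.5 CPM to 159 ± 7.49, 167 ± 21.1 and 157 ± 9.33 CPM (SD, n = 4 each). Its neighbour Uqcrc2 fell with fat (-0.39) and lung (-0.50). Uqcrfs1, a core subunit, stood at 390.6 CPM at day 0 and at 337.8, 340.8 and 341.0 CPM with fat, lung and mammary fibroblasts (group means), without a call. Without fat library 2 it was called lower with fat (-0.31, adjusted p = 0.0466 by edgeR). Of 14 tested members of complex IV, 4 fell with fat (Cox4i1, Cox5a, Cox5b and Ndufa4), 1 with lung (Cox5b) and none with mammary fibroblasts. With the replicate block Cox5a (adjusted p = 0.0515) and Ndufa4 (0.0591) were not called, and Cox4i1, Cox5a and Ndufa4 each lost the call under 5 or 6 single omissions, at an adjusted p of up to 0.113, 0.136 and 0.0975. Cox6a1, at 1256 ± 88.7 CPM at day 0, stood at 996 ± 171, 1076 ± 265 and 1195 ± 123 CPM, without a call. Cox6b2, known as a testis isoform, rose with mammary fibroblasts from 1.91 ± 0.822 to 4.10 ± 1.05 CPM (log2 change 1.16 ± 0.36 SE, adjusted p = 0.0201). The call was lost without day-0 library 1, day-0 library 4 or mammary library 2 (adjusted p = 0.0858, 0.0534 and 0.0762). Cox6b2 was more than 5 times as high in co-cultured fibroblasts of each organ as in day-0 macrophages, and the part of fibroblast RNA in its rise was not tested. Over the members the median of that ratio was 1.21 for fat, 1.12 for lung and 0.948 for mammary fibroblasts.

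**Figure D4:**
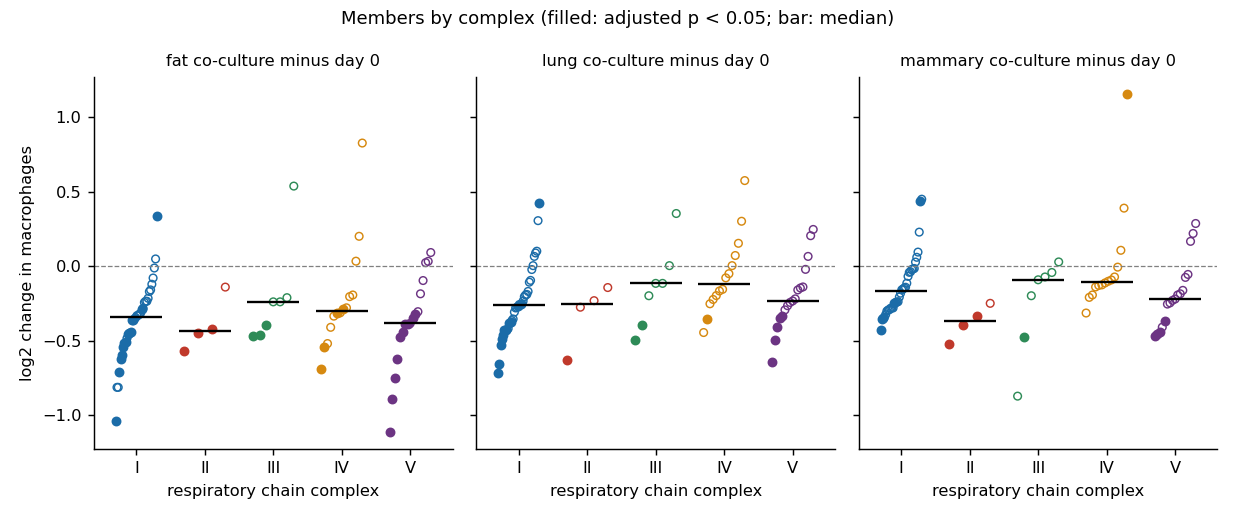
Each circle is 1 tested member, the vertical axis gives its log2 change in macrophages against day 0, filled circles were called (adjusted p < 0.05, edgeR) and bars are medians. The medians of all 5 complexes lie below 0 in each panel, and the lowest is that of complex II with fat fibroblasts, at -0.43.

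In all, 8 members fell in all 3 comparisons (Atp5a1, Atp5b, Atp5g3, Atp5o, Ndufs8, Ndufv1, Sdhb and Uqcrc1), 12 in 2 comparisons and 17 in 1. The other 39 tested members were not called lower in any. No background over all genes is given for these counts, and the 3 comparisons share their day-0 libraries. Whether 8 is more than among other genes was therefore not tested. Under every alternative, Sdhb and Uqcrc1 kept the call in all 3 comparisons. The lung call of Atp5a1 was lost without day-0 library 3 or lung library 3 (adjusted p = 0.0897 and 0.0786), and that of Atp5b without day-0 library 1 or lung library 3 (0.0533 and 0.0783). The losses of Atp5g3 and Ndufv1 are given above, and Atp5o and Ndufs8 were not followed singly under the alternatives.

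Promoter sequence was looked at because the members moved together and lie apart, on 19 chromosomes in GENCODE vM21. RefSeq (GRCm38.p6) gave promoter windows for 65 of the 78 members. Motifs were searched on both strands in the 250 bases before each start. The NRF1 motif (GCGCA, any base, then GCGC), named for a factor known to bind promoters of respiratory genes, was held by 12 of the 65 members (18.5%) and by 4.23% of 27025 genes. The ETS motif CCGGAAG, bound by GABPA, was also held by 12 (18.5%), against 7.83% of genes. The motif AAGGTCA of the oestrogen-related receptors was held by 4 members (6.15%, against 4.70%), and AAGATGGC of YY1 by 1 (1.54%, against 1.83%). The 27025 genes are all those with a window, whether or not they were measured here. The shares were not matched for expression or base content, so a higher share is not shown to be particular to the members. A match is a description of letters and not a binding site.

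NRF1 matches of 5 members that fell in at least 1 macrophage comparison are shown as examples, in stretches of 30 bases on the gene's strand, with the match in capitals. They lie at chr6:24527697-24527726 (Ndufa5), chr13:73328479-73328508 (Ndufs6), chr5:108434430-108434459 (Atp5k), chr2:10080430-10080459 (Atp5c1) and chr9:50603909-50603938 (Sdhd), all on the minus strand.
Ndufa5: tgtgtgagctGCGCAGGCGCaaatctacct
Ndufs6: cgactgctgtGCGCCTGCGCcggcacttgg
Atp5k: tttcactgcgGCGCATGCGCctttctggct
Atp5c1: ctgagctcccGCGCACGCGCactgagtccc
Sdhd: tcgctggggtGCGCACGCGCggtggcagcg
Ndufa8 held such a match 30 bases before its start, and Sdha held 3, at 10, 55 and 98 bases. Both fell in 1 comparison. The other members with an NRF1 match, Atp5g2, Atp5h, Cox6a1, Ndufb4 and the untested Ndufa11, were not called lower in any macrophage comparison. Any of the 4 motifs was held by 13 of the 31 members with a window that fell in at least 1 comparison. Over all 65 members it was 23 (35.4%). Whether a motif goes with the fall was not tested.

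Of the 8 members that fell in all 3 comparisons, Atp5g3 alone held any of the motifs among the 7 with a promoter window. Its window, chr2:73911327-73911576 on the minus strand, holds the receptor motif on the opposite strand, 52 bases before the start, shown in capitals.
Atp5g3: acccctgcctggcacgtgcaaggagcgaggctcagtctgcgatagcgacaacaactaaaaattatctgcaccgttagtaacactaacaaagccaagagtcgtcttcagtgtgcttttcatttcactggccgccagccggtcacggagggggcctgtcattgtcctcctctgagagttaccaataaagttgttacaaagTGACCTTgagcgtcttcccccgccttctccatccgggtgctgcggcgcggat

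Other genes of the pathway were counted in the same fit, in which 14.4%, 13.2% and 11.8% of all genes fell and 15.8%, 14.6% and 14.4% rose. Of 13 tested citric acid cycle genes 4 (30.8%) fell in each macrophage comparison and none rose. Idh2, a mitochondrial isocitrate dehydrogenase, fell by 0.57, 0.39 and 0.53 on the log2 scale, Mdh2, the malate dehydrogenase, by 0.49, 0.47 and 0.40, and Idh3a by 0.66, 0.79 and 0.48. Of 70 mitochondrial ribosome genes, 28, 16 and 15 fell (40.0%, 22.9% and 21.4%) and 1, 2 and 4 rose. Of 39 assembly factors, 7, 5 and 3 fell and 1, 1 and none rose. The shares that fell, 17.9%, 12.8% and 7.69%, lie near or below those of all genes. Among 13 genes of electron carriers and coenzyme Q synthesis 2, 3 and 3 fell (15.4%, 23.1% and 23.1%). They were led by Pdss1, which makes the coenzyme Q side chain (-1.24, -1.21 and -0.94). Of 12 regulators of mitochondrial biogenesis, 3 fell with fat, 3 with lung (25.0% each) and none with mammary fibroblasts. Pprc1, a coactivator, fell with fat (-0.84) and lung (-0.53), and Myc rose with lung (0.50). Of 84 cytosolic ribosomal protein genes 19, 2 and 5 fell (22.6%, 2.38% and 5.95%) and none, 1 and none rose. Pdk1, the kinase that inactivates pyruvate dehydrogenase, was the 1 called gene of 7 in that list and rose in each comparison (1.57, 1.58 and 2.04). That share of the list, 14.3%, is near the share of all genes that rose.

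Between macrophages from different partners, edgeR called 0 of 76 members in each of the 3 contrasts. The median log2 difference over the members was -0.12 for fat minus lung, -0.20 for fat minus mammary and -0.05 for lung minus mammary. Without any 1 library these medians ran from -0.21 to -0.04, from -0.26 to -0.13 and from -0.16 to 0.02, so that the last changed sign. At an unadjusted p under 0.05 there were 5, 17 and 4 members, which is 6.58%, 22.4% and 5.26%, against 11.9%, 15.3% and 17.6% of all genes. DESeq2 called 0, 2 (Atp5md and Ndufa5, both lower with fat than with mammary fibroblasts) and 1 (Uqcrc2, lower with lung than with mammary fibroblasts). The smallest adjusted p by edgeR was 0.361, 0.064 and 0.0521. Over all genes 3.10%, 2.72% and 5.59% were called in these contrasts. A member called against day 0 with 1 partner and not with another is therefore not shown by edgeR to differ between partners. Without fat library 2 edgeR called 2 members in the fat and mammary contrast, without mammary library 1 or 2 it called 1. In the lung and mammary contrast it called 4 without lung library 1 and 1 without mammary library 2 or 4.

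Few genes of any kind were called in fibroblasts with against without macrophages, so that the low counts of called members are not particular to them. Positive changes, whether called or not, were found for 56 of 77 members in fat, 27 in lung and 34 in mammary fibroblasts. In fat and lung fibroblasts edgeR called 0 of 77 members (and 0 each by DESeq2), where 0.201% and 1.31% of all genes were called. Members with an unadjusted p under 0.05 by edgeR numbered 3 and 0 (3.9% and 0.0%), against 9.89% and 9.46% of all genes. The median log2 change was 0.16 in fat (0.03 to 0.24 without any 1 library) and -0.08 in lung (-0.15 to -0.01). In mammary fibroblasts 1 member rose and none fell, where 2.36% of all genes rose and 1.29% fell, and the median change was -0.05 (-0.10 to 0.05). The share of counts on members was 2.20% and 2.60% in fat fibroblasts alone and 2.39% to 2.84% with macrophages, 2.41% to 2.79% and 2.41% to 2.54% in lung, and 2.26% to 2.46% and 1.94% to 2.72% in mammary fibroblasts. These groups overlapped in each organ. In the interaction contrasts, which test whether organs differ in the response, 0 of 77 members were called in each by edgeR and by DESeq2. Over all genes 0, 3 (0.0242%) and 12 (0.0966%) were called in them. At an unadjusted p under 0.05 by edgeR there were 5, 1 and 2 members (6.49%, 1.3% and 2.6%). Over all genes the shares were 6.55%, 7.28% and 6.06%. The median log2 difference over the members was 0.23 for fat minus lung, 0.18 for fat minus mammary and -0.03 for lung minus mammary. Over all genes it was 0.03, 0.01 and -0.01. Without any 1 library the member medians ran from 0.14 to 0.32, from 0.07 to 0.27 and from -0.10 to 0.05.

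The member that rose in mammary fibroblasts was Cox7a1 (chromosome 7, 30184144 to 30186078), known as the isoform of heart and skeletal muscle. It stood at 15.4, 10.3, 14.6, 8.02 and 6.55 CPM in mono-cultures and at 31.3, 14.3, 37.2, 23.0 and 17.5 CPM in co-cultures, in replicate order, so that the groups overlapped and each co-culture exceeded the mono-culture of its number. The log2 change was 1.17 ± 0.27 (SE, adjusted p = 0.0192), and the call was lost without co-culture library 1 or mono-culture library 4 or 5 (adjusted p = 0.0505, 0.0501 and 0.055). With the replicate number as a block 3 members were called: Cox7a1 (adjusted p = 0.00444), Cox6b2, which rose by 1.00 ± 0.25, and Cox5a, a subunit of complex IV, which fell by 0.43 ± 0.11 (adjusted p = 0.0415 and 0.041). Ndufa4l2 and Cox4i2, the relatives of Ndufa4 and Cox4i1 left out of the members, rose in the same comparison by 1.23 and 2.32 on the log2 scale (adjusted p = 0.0261 and 0.0009), and in lung fibroblasts by 2.83 and 3.67 (adjusted p = 0.00122 and 0.00115). In fat fibroblasts Ndufa4l2 stood at 137.0 to 164.5 CPM with macrophages against 26.2 and 63.3 CPM alone. Cox4i2 stood there at 12.3 to 14.5 CPM against 0.684 and 2.88 CPM. Muscle markers, by summed level, stood at 117, 143, 38.5, 42.1 and 38.7 CPM in the mammary co-cultures and at 177, 65.9, 20.4, 22.8 and 13.8 CPM in the mono-cultures, and their part in the rise of Cox7a1 was not tested.

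Organ of origin set apart isoforms that are known for restricted expression. Cox6a2 (chromosome 7, 128205435 to 128206387), the heart and skeletal muscle counterpart of Cox6a1, stood at 30.0, 30.5, 24.1, 34.0 and 27.3 CPM in mammary mono-cultures and at 13.1, 25.7, 10.6, 32.8 and 20.2 CPM in mammary co-cultures. In the 11 fat and lung libraries it reached at most 3.42 CPM. No mammary library overlapped them. The difference of fat from mammary fibroblasts was -4.17 ± 0.53 in co-culture and -4.07 ± 0.59 alone, and that of lung -3.66 ± 0.50 and -4.20 ± 0.50 (log2, SE; adjusted p = 1.2e-05, 4.48e-05, 1.38e-05 and 2.01e-06). The 5 muscle markers summed to 13.8 to 177 CPM in mammary, 221 to 373 CPM in lung and 1161 to 2029 CPM in fat libraries. In fat mono-cultures Myh3, Myog and Ckm had no counts, so that the sum there rests on the other markers. The mean over the markers on the log2(CPM + 0.5) scale gave another order. It was 1.64 alone and 2.19 with macrophages in mammary, 1.63 and 2.07 in fat, and 1.40 and 1.31 in lung fibroblasts. The part of muscle RNA in the level of Cox6a2 was not tested. Itgad, on the opposite strand, overlaps Cox6a2 in the annotation.

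Cox6b2 (chromosome 7, 4751792 to 4753094) followed another order. It was highest in lung fibroblasts, at 53.2, 61.5 and 90.0 CPM alone and 42.3, 54.5 and 54.4 CPM with macrophages. Fat fibroblasts stood at 35.4 and 16.5 CPM alone and 29.7, 31.9 and 36.7 CPM with macrophages. Mammary fibroblasts were lowest, at 2.43 to 8.95 CPM alone and 6.73 to 12.2 CPM with macrophages. No lung library overlapped a fat library, and no fat library overlapped a mammary library. Lung minus mammary differed by 3.72 ± 0.30 alone and 2.31 ± 0.29 in co-culture, and fat minus mammary by 2.33 ± 0.33 and 1.69 ± 0.29 (log2, SE; adjusted p = 1.75e-08, 4.91e-06, 3.09e-05 and 0.000262). Fat minus lung was called alone (-1.39 ± 0.37, adjusted p = 0.0203), and this call was lost without lung mono-culture library 3 or the unnumbered fat library (adjusted p of up to 0.304). Cox8b, a further muscle isoform found only in the fibroblast table, stood at 1.57 CPM or less in every fibroblast library.

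**Figure D5:**
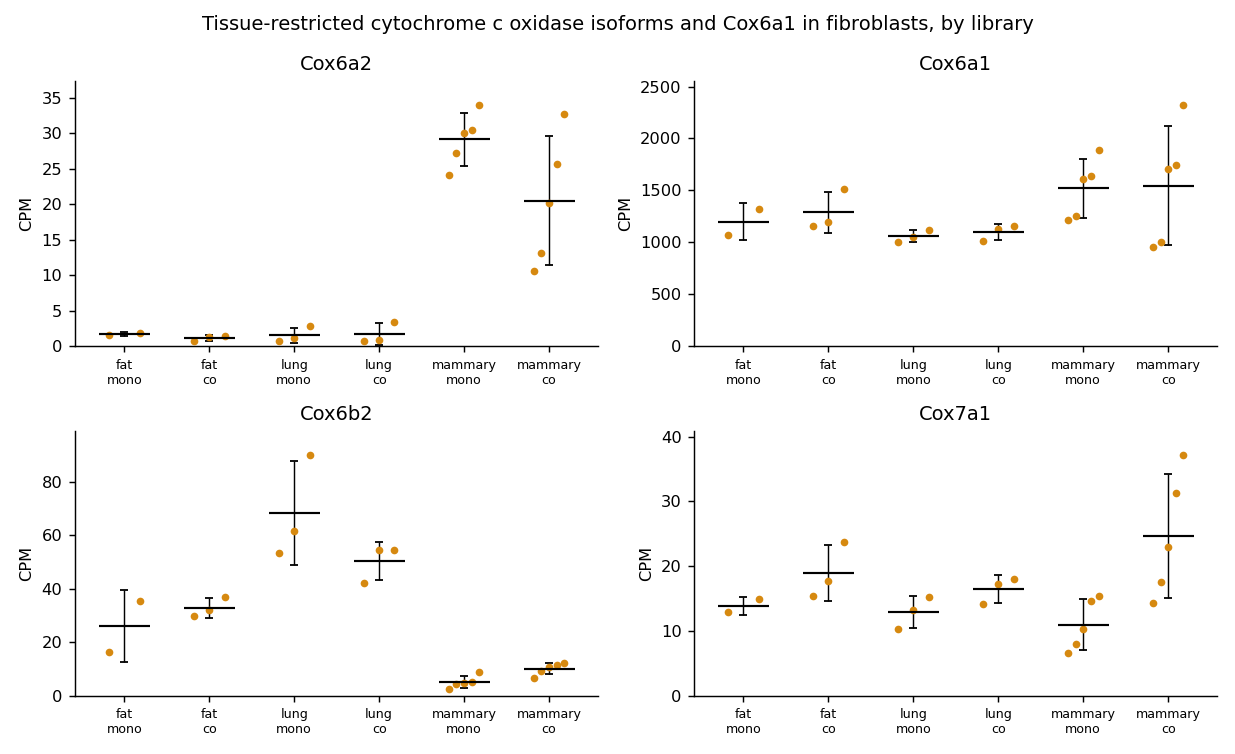
Points are fibroblast libraries by organ and culture (mono, alone; co, with macrophages), the vertical axes give CPM, bars are means and whiskers the SD (n = 2 to 5). Cox6a2 is at 10.6 CPM or more only in mammary libraries, Cox6b2 is highest in lung, and Cox7a1 in mammary co-cultures overlaps the mono-cultures, while Cox6a1 stands near or above 956 CPM in every library.

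With these isoforms included, the share of members called between organs was below that of all genes in each direction, except for members higher in co-cultured fat than in mammary fibroblasts. For co-cultured fat minus mammary 11 of 77 members were higher and 1 lower (14.3% and 1.3%), against 13.3% and 12.0% of all genes. For co-cultured lung minus mammary 6 were higher and 3 lower (7.79% and 3.9%, against 16.9% and 15.3%), and for fat minus lung none was called, against 9.41%. For mono-cultures, lung minus mammary gave 8 higher and 3 lower (10.4% and 3.9%, against 21.2% and 19.1%), or 4 and 6 without lung library 3. Fat minus mammary gave 2 and 2 (2.6% each, against 14.1% and 9.20%), and fat minus lung 1 and 1 (1.3% each, against 5.48% and 3.80%), with 0 in all without the unnumbered fat library and 1 without any other. Scaling by library totals, which moved the median of all genes by over 0.1 in the comparisons with mammary fibroblasts, for example from 0.03 to 0.19 for co-cultured lung minus mammary, changed these splits. It gave 13 higher and 1 lower for co-cultured lung minus mammary, 7 and 1 for mono-cultured fat minus mammary, and 24 and 3 for mono-cultured lung minus mammary.

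Several called members moved one way in the comparisons with mammary fibroblasts. Uqcr10, a small subunit of complex III, was higher than in mammary fibroblasts in co-cultured fat (0.50), co-cultured lung (0.62) and mono-cultured lung fibroblasts (0.72), and Ndufa1, needed for assembly of complex I, in co-cultured fat (0.61) and mono-cultured lung fibroblasts (0.76). Ndufb4 was higher in co-cultured lung (0.78) and mono-cultured fat fibroblasts (0.95). Also called higher than in mammary fibroblasts were Ndufs3 in co-cultured fat and co-cultured lung, Cox6c in co-cultured fat and Atp5mpl in mono-cultured lung fibroblasts. These calls were lost under some alternatives, at an adjusted p by edgeR of up to 0.0962, 0.0771, 0.15 and 0.504. The last value is that of Atp5mpl without lung mono-culture library 3, where its log2 difference was 0.485. Atp5mpl stood at 134.8 CPM in that library and at 36.5 and 43.8 CPM in the other lung mono-cultures. In the other direction, Sdhb was lower in lung than in mammary fibroblasts (-0.52 in co-culture, lost under 10 alternatives, and -0.78 ± 0.20 alone, kept under all). Cox4i1, the broadly expressed form of subunit 4 of complex IV, was lower in co-cultured lung (-0.55) and mono-cultured fat fibroblasts (-0.65), and both calls were lost with library totals and without several single libraries. Atp5pb, in the peripheral stalk of complex V, was lower in mono-cultured lung than in mammary (-0.64) and fat fibroblasts, where fat minus lung was 0.54. That call against fat was lost under 4 of 5 single omissions (adjusted p = 0.133 to 0.201). Also lost were the calls of Ndufb4 in mono-cultured fat without fat library 1 (0.0944), Uqcr10 in co-cultured lung without lung library 3 (0.087) and Ndufa1 in co-cultured fat without fat library 2 (0.115).

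Within the mammary fibroblasts, libraries 1 and 3 stood apart from libraries 2, 4 and 5 for some of these genes. Atp5k, a small membrane subunit of complex V, stood at 394 and 439 CPM in mono-culture libraries 1 and 3 and at 152 to 164 CPM in the other 3. In co-culture it stood at 295 and 338 CPM against 169.5 to 272.5 CPM. Sdhb went the other way, at 359 and 322.5 CPM against 447 to 489 CPM alone, and 282 and 275 CPM against 406 to 525 CPM with macrophages. The fat minus mammary difference of Atp5k in co-culture (1.21 ± 0.34 SE, adjusted p = 0.0141) was lost without fat co-culture library 2 and with the replicate block, at an adjusted p of up to 0.085. Without fat co-culture library 2 the count of 12 called members in that comparison was 3, without mammary co-culture library 5 it was 7, and with the replicate block 6. The lung minus mammary count of 9 in co-culture was 5 without lung library 1 or mammary library 2, and its split was 6 higher and 6 lower without mammary library 1 and 5 and 7 without mammary library 3. Without mammary library 2 the mono-culture count of 11 was 7, and without fat library 1 the fat minus mammary count of 4 was 2.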

How the data were processed

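The authors deposited unnormalised counts by gene, 11965 genes in the macrophage table and 14028 in the fibroblast table. Every gene reaches 6 counts in some library. The deposited normalised tables hold a signal equal to the raw count divided by a median-of-ratios factor per library (largest relative gap 7.85e-15) and served only as a check. Per the submitters' processing notes, STAR 2.4.2a, HTSeq, bcl2fastq and the build mm10 were used. No label states the gene annotation, strand setting or handling of molecular identifiers, so that overlapping genes may be mixed. Of the members, 8 have another measured gene over their 3′ end.

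Groups came from the sample labels. The number of 1 fat mono-culture column matches no title, so it was used by its group only. Counts were tested with edgeR 4.0.16 in R 4.3.3 (quasi-likelihood F-test, TMM scaling, filterByExpr with minimum count 10) in 1 model per table over 10295 and 12421 genes, with Benjamini-Hochberg adjustment and a threshold of 0.05. The SE of a change was derived from it and its F statistic. At these totals 3 counts correspond to at most 0.987 CPM, which covers counting error only. No library repeated another: counts of all 54 within-group pairs were further apart than sampling allows (chi-square per degree of freedom 3.47 to 72.2). The alternatives were DESeq2 1.42.0, median-of-ratios factors, library totals, no filter, a replicate block and leaving out each library. The fits were tested on simulated data.

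Same-numbered mammary co- and mono-cultures deviated together (r of 0.30 to 0.56 in 5 pairs). The numbers were taken to pair them, and the blocked result is given beside that comparison. Libraries of different numbers were not correlated, so this check cannot tell pairing apart from the split between mammary libraries described above. The rule for naming took the 4 called members of at least 20 CPM with the largest change in each direction per comparison. It also took the most abundant member per complex, and fixed core subunits and isoforms. Not every gene under the rule is described above, and Cox8a and Atp5g2 are among those left out. Members named outside this rule (Atp5md, Cox5b, Mdh2 and other pathway genes among them) were chosen after their values were seen. The members and lists were chosen with earlier results of these data known.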

Additional observations from a re-analysis of the deposited data

Results flagged for a closer look

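Libraries that stood far from the others of their group were looked for in 258 sets of values (shares of counts and named members, groups of 4 or 5), and 16 (6.2%) were found, which is near the 1 in 20 that chance gives. Macrophage fat library 2 appeared 6 times, each time above the others: 0.646% of counts on complex V against 0.538% to 0.554%, Atp5a1 at 1004 CPM against 892 to 894.5, Atp5g3 at 872 against 564 to 575.5, Cox7a2 at 225 against 148 to 155.5, Ndufa13 at 478 against 348 to 357, and also Uqcrfs1 at 409 against 308 to 325 CPM. Mammary macrophage library 3 held 2.18% of counts on members against 1.96% to 1.99%, Ndufa13 at 537.5 CPM against 437 to 442, and Ndufb4 at 184 against 86.0 to 102 CPM. Atp5b stood at 1049.7 CPM in lung macrophage library 3 against 1262 to 1284 CPM, Ndufs4 at 25.1 CPM in lung library 1 against 36.4 to 38.5 CPM, and Atp5g1 at 49.5 CPM in day-0 library 3 against 35.4 to 37.1 CPM.

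In fibroblasts, mammary co-culture library 4 held 0.203% of counts on complex III against 0.152% to 0.161%, Cox6b1 at 984 CPM against 428.5 to 574 CPM and Uqcrh at 825.5 CPM against 364 to 481 CPM. That library also held 12.7% of its counts on cytosolic ribosomal proteins, the highest of the group. Cox7a2l stood at 268 CPM in mammary co-culture library 3 against 151 to 178 CPM.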

How the results depend on the processing

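The main counts of called members against day 0 stayed within 1.5 times under each alternative scaling, tool, filter and block (fat 30 to 47, lung 19 to 31, mammary 12 to 21, from 34, 21 and 14), and leaving out 1 library gave 22 to 42, 9 to 29 and 10 to 15. DESeq2 gave 2 calls for fat minus mammary macrophages and 1 for lung minus mammary macrophages, library totals 1 for the latter, and leaving out 1 library 0 to 2 and 0 to 4. In mammary fibroblasts with and without macrophages DESeq2 gave 2 calls, the replicate block 3 and single omissions 0 to 2. For co-cultured fat minus lung fibroblasts DESeq2 gave 1. For co-cultured fat minus mammary the block gave 6 and omissions 3 to 16, for co-cultured lung minus mammary library totals gave 14 and omissions 5 to 12, for mono-cultured fat minus lung omissions gave 0 to 1, for mono-cultured fat minus mammary library totals gave 8 and omissions 2 to 6, and for mono-cultured lung minus mammary library totals gave 27 and omissions 7 to 15. Of 57 calls of named members 27 held under every alternative and no call turned its direction. Elsewhere the block changed no count by over 1.5 times. Macrophage numbers (r of -0.36 to 0.29) and lung fibroblast numbers (0.04 to 0.34) were not taken to pair the libraries, as not every r exceeded 0.1. No paired analysis was possible for fat fibroblasts with and without macrophages, their interactions and mono-cultured fat against other organs because the groups share fewer than 2 numbers. The cause of these differences was not tested. The square root of the dispersion between libraries was 16.9% in macrophages and 29.1% in fibroblasts, which with 2 to 5 libraries a group limits how small a change can be called.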
